A study of Homo sapiens with 54 samples.

Results

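Cells of the melanoma line WM266-4 that carried an inducible shRNA labelled shERK2 were compared directly with cells that carried one labelled shERK1, after the same time of induction. There were 3 arrays against 3 on day 3 and 3 against 3 on day 7, which is 12 of the series' 54 arrays. A gene was taken to differ alike when it was higher, or lower, in shERK2 cells than in shERK1 cells on both days at an adjusted p under 0.05 on each. Genes that also differed between cells with a non-targeting shRNA (NT) and parental cells on either day were kept apart, since they separated lines in which neither kinase was targeted. Of 9779 genes tested, 2962 (30.3%) differed alike on both days. Of these, 1951 (20% of the genes tested) were not called between NT and parental cells: 1121 (11.5%) were higher and 830 (8.49%) lower in shERK2 cells. The other 1011 were kept apart.

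WM266-4 is an established human melanoma line that carries a mutant, active BRAF. The shRNAs labelled shERK2, shERK1 and NT were inducible, and all 3 lines received 100 ng/ml doxycycline for 3 or 7 days. The parental cells carried no shRNA, and their labels disagree on doxycycline, which one field lists as the treatment while another calls the cells untreated. A further arm of unmodified cells, used at the end of this section, received one of 4 inhibitors or DMSO for 3 h or 24 h: the RAF inhibitor LGX818 at 0.05 uM, the MEK inhibitors trametinib at 0.003 uM and MEK162 at 0.3 uM, or an unnamed ERK1/2 inhibitor at 0.2 uM. The growth protocol writes WM266-6 where it speaks of the shRNA cells, and every other label gives WM266-4. The labels name 1 shRNA line per target, so the target and the particular line cannot be told apart. They do not say whether the arrays lettered a, b and c came from separate cultures, and every p therefore measures only the spread between those samples.

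ERK1 and ERK2 are closely related kinases at the end of the RAF-MEK-ERK cascade. They enter the nucleus, phosphorylate transcription factors and so raise immediate early genes such as those of the EGR and FOS families, while dual-specificity phosphatases and sprouty proteins, induced by the same signal, feed back on the cascade. In melanoma with mutant BRAF the cascade is constantly active, drives cell cycle entry and ribosome production, and modulates the pigment programme run by MITF. ERK1 is encoded by MAPK3. For the shERK2 line, the level of the targeted gene itself is not analysed here.

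The arrays were alike in overall level, with medians between 7.78 and 8.04 log2, but array a of shERK2 day 7 stood apart. The 3' minus 5' signal of its GAPDH control probe set was 1.53 log2. That signal was 0.23 to 0.565 on the other 5 shERK2 arrays, 0.139 to 0.241 on shERK1 arrays, and 0.206 to 0.32 on NT and parental arrays. A high value marks shorter or incompletely labelled RNA. Array c of the same group had the second highest value. The part of these arrays in the differences was examined by leaving them out, and counts from a fit with array weights are given further below. Without array a, 2116 genes differed alike and were not called between NT and parental cells, 1546 of them among the 1951. Without arrays a and c, a choice made after the data were seen, the number was 1827, with 1343 among the 1951. Of the retained genes picked for naming, 71 could be tested without array a. All 71 still differed alike, and 14 of them (among them PLN, EGR3, SOX8, RPS6KA2, BUB1, AURKB, ZEB2, ATF3 and SPRY4) then also differed between NT and parental cells. Without arrays a and c, array b alone stood for that group. Calls of named genes are therefore not given from that fit, and their stability under it is left unstated. Melanocyte genes marked the cells as labelled: 6 of 7 markers (MITF, SOX10, PMEL, MLANA, TYR and TYRP1) exceeded the level cut, with summed linear levels of 23700 to 34100 in shERK2 cells and 29100 to 33800 in shERK1 cells. Of leukocyte, fibroblast, epithelial and endothelial markers, 1 each of 11, 10, 8 and 8 exceeded it (CD68, COL1A2, ESRP1 and KDR).

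The number of differing genes was larger on the later day. On day 3, 3471 genes (35.5%) differed between shERK2 and shERK1 cells, 1850 (18.9%) higher and 1621 (16.6%) lower. On day 7 the number was 6714 (68.7%), with 3480 (35.6%) higher and 3234 (33.1%) lower. Of the day 3 calls, 85.3% were called alike on day 7, and of the day 7 calls 44.1% were called alike on day 3. Only 92 genes were called in opposite directions. The arrays of the 2 days are separate samples of the same lines, and across the 9779 genes the log2 differences of day 3 and day 7 had a Pearson r of 0.855. The size of the increase in calls depended on how the spread was estimated. A fit of only the 6 arrays of each day called 3974 genes on day 3 and 4803 on day 7, and array weights 5592 and 6860. The shERK2 day 7 arrays had mean within-group correlations of 0.965 to 0.983, against 0.9926 or more for the other arrays fitted.

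**Figure D1:**
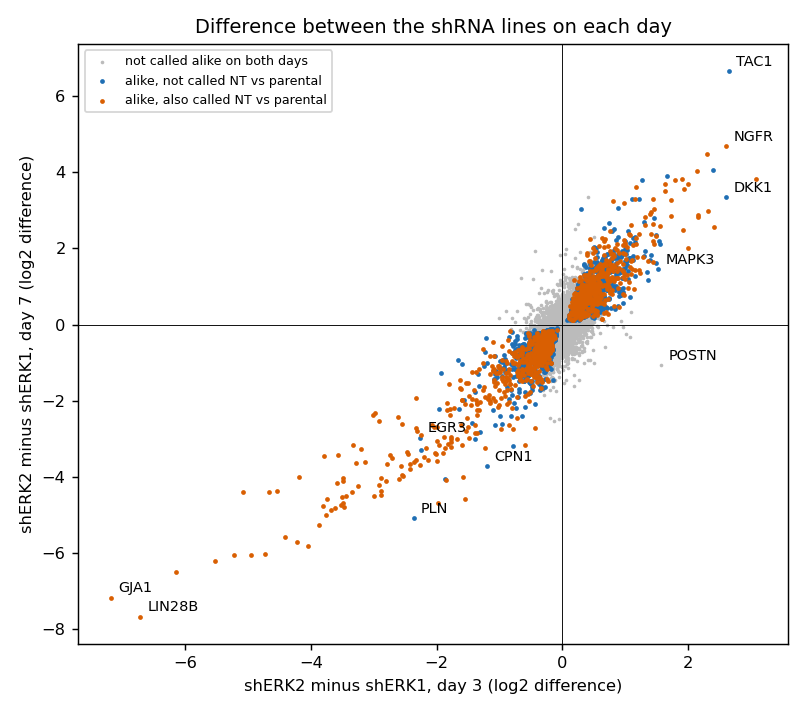
Log2 difference of shERK2 minus shERK1 cells for each of the tested genes, on day 3 (x axis) and on day 7 (y axis), with 3 arrays per group. Blue points differed alike on both days and not between NT and parental cells, orange points differed alike and also between NT and parental cells, and grey points are the rest. Most coloured points lie further from 0 on day 7, with TAC1 at 2.65 and 6.65 and PLN at -2.37 and -5.09, while LIN28B, GJA1 and SHISA2 (orange) are the lowest on both axes.

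The differences of the retained genes were mostly moderate. The median log2 difference of the 1121 higher genes was 0.39 on day 3 and 0.63 on day 7, and that of the 830 lower genes was -0.32 and -0.56, where the median of all tested genes was 0.0177 and 0.0139. The 3 shERK2 arrays lay entirely above the 3 shERK1 arrays on both days for 1051 of the 1121, and entirely below for 773 of the 830. Among all genes, 37.9% were separated alike in this way. The retained genes were picked by tests on these same arrays, so their separation adds no support of its own. A log2 difference of at least 1 on both days was reached by 43 of the higher and 25 of the lower genes. The level cut itself favours some of the retained genes: 129 of the 1121 passed it only through shERK2 groups, and 8 of the 830 only through shERK1 groups. Over all 9779 tested genes, 330 passed only through shERK2 and 109 only through shERK1 groups. At the edge of the selection, NMT2 (0.15 and 0.40 log2 on days 3 and 7) and AFAP1 (0.29 and 0.57) were just inside with an adjusted p of 0.05 on day 3, while SNX11 (0.22 and 0.35) and SHARPIN (0.23 and 0.38) were just outside with 0.0502.

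MAPK3, the gene of ERK1, was among the retained genes. On day 3 it had 9.78, 9.63 and 9.65 log2 in shERK2 cells, against 8.02, 8.28 and 8.19 in shERK1 cells. The NT and parental arrays lay with those of shERK2, with 9.66, 9.67 and 9.78 in NT cells and 9.56, 9.59 and 9.58 in parental cells. Its day 7 levels were 9.87, 9.54 and 9.40 log2 in shERK2 cells, against 7.99, 8.49 and 7.98 in shERK1 cells. No shERK1 array overlapped any other group on either day, so the label shERK1 fits the level of its target. This gave a log2 difference of 1.53 (SE 0.12, adjusted p = 1.18e-09) on day 3 and 1.45 (adjusted p = 7.27e-10) on day 7. The difference did not change detectably between the days (-0.08, adjusted p = 0.745).

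Of 14 tested kinases of the RAF-MEK-ERK-RSK cascade and its relatives, 2 differed alike, both higher in shERK2 cells: MAPK3 and RPS6KA2. Over all tested genes, 16.3% were higher alike and 14% lower alike, so nothing is read from the count of 2. The counts of the lists below stand beside these shares. RPS6KA2, a ribosomal S6 kinase that ERK phosphorylates, had 9.85, 9.76 and 9.82 log2 in shERK2 cells, against 9.20, 9.40 and 9.08 in shERK1 cells on day 3, and 9.85, 9.53 and 9.59 log2 in shERK2 cells, against 8.70, 8.74 and 8.74 in shERK1 cells on day 7. The groups did not overlap. The lines differed by 0.58 (SE 0.077, adjusted p = 4.02e-06) log2 on day 3 and 0.93 (adjusted p = 9.37e-10) on day 7. NT cells had 9.59, 9.55 and 9.51 on day 7, close to shERK2 cells, so here too shERK1 cells were the low ones. MAPK7 (0.29 and 0.39), MKNK1 (-0.02 and 0.49), ARAF (0.09 and 0.24), RPS6KA1 (-0.29 and -0.49) and RPS6KA5 (0.15 and -0.87) passed the test on day 7 alone, and MAPK9 (-0.22 and -0.02) on day 3 alone. Here and below, a pair of signed values after a gene is its log2 difference, shERK2 minus shERK1, on day 3 and on day 7. The median over the 14 was 0.088 on day 3 and 0.00426 on day 7.

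Some of the genes that feed back on ERK were lower in shERK2 cells. Of 9 tested members of this list, 4 were lower alike on both days (SPRY1, SPRY4, DUSP5 and DUSP6), 1 was higher alike (DUSP7), and none of these was called between NT and parental cells. SPRY1, a sprouty protein that dampens signals from receptor tyrosine kinases, had 10.79, 10.79 and 10.89 log2 in shERK2 cells, against 12.06, 12.12 and 12.20 in shERK1 cells on day 3. The values on day 7 were 8.78, 9.58 and 9.48 log2 in shERK2 cells, against 12.09, 12.09 and 12.15 in shERK1 cells. All shERK2 arrays were below all arrays of the other lines, and array a was the lowest. On the log2 scale SPRY1 differed by -1.30 (SE 0.12, adjusted p = 2.56e-08) on day 3 and -2.83 (adjusted p = 1.61e-14) on day 7, a 7.11-fold gap. SPRY4, its paralogue, differed by -0.49 on day 3 and -0.72 on day 7 (adjusted p = 4.2e-05 and 6.85e-08). DUSP5, a nuclear phosphatase of ERK, differed by -1.08 on day 3 and -0.82 on day 7 (adjusted p = 5.04e-09 and 7.87e-08). DUSP6, the cytoplasmic ERK phosphatase, had 12.53, 12.57 and 12.58 log2 in shERK2 cells, against 12.83, 12.61 and 12.87 in shERK1 cells on day 3. Those groups were separate but close: the difference was -0.21 on day 3 and -0.33 on day 7 (adjusted p = 0.0134 and 0.000113). NT cells had 12.94, 12.99 and 12.96, above both. DUSP7, a further ERK phosphatase, was higher by 0.32 and 0.41, with shERK1 cells below NT cells, at -0.37 and -0.23 (adjusted p = 0.00456 and 0.0404). DUSP4 (-0.22 and -0.04) was called on day 3 alone, and SPRED1, SPRED2 and SPRY2 on neither day. The list's median was -0.208 on day 3 and -0.148 on day 7. The shares of all tested genes lower and higher alike were 14% and 16.3%.

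Immediate early and other transcriptional targets of the cascade differed in both directions. Of 16 tested, 7 were lower alike and 3 higher alike, with medians of -0.0598 on day 3 and -0.383 on day 7; EGR1, LIF and JUN of these also differed between NT and parental cells. EGR3, an immediate early zinc finger factor, had 9.04, 9.10 and 8.95 log2 in shERK2 cells, against 11.28, 11.09 and 11.48 in shERK1 cells on day 3. By day 7 the levels were 7.63, 8.06 and 8.12 log2 in shERK2 cells, against 11.02, 10.91 and 10.81 in shERK1 cells. NT cells had 11.60, 11.66 and 11.56. The groups were far apart, with shERK1 cells also a little below NT cells. The log2 difference was -2.26 (SE 0.11, adjusted p = 4.04e-13) on day 3 and -2.97 (adjusted p = 1.01e-15) on day 7. IER2 and IER3, immediate early response genes, differed by -0.45 and -0.79 and by -0.63 and -0.56 on days 3 and 7. FOSB, an AP-1 subunit, differed by -0.57 and -0.23, and ETV4, an ETS factor downstream of ERK, by -0.28 and -1.42. EGR1 differed by -1.36 and -2.85. A pair of AP-1 subunits ran the other way: FOSL1 was higher by 0.61 on day 3 and 1.25 on day 7 (adjusted p = 0.000149 and 1.73e-09), and JUN by 1.09 on day 3 and 1.33 on day 7 (adjusted p = 1.8e-08 and 1.92e-10). EPHA2, a receptor tyrosine kinase, was higher by 0.35 and 0.94. ETV1 (-0.05 and -0.43), ETV5 (-0.07 and -0.41), PHLDA1 (-0.003 and -0.35) and JUNB (-0.04 and -0.29) passed on day 7 alone. CCND1, cyclin D1, did not differ detectably on day 3 (0.02, adjusted p = 0.852) and was higher by 0.25 on day 7. MYC passed on neither day (0.32 and -0.11, adjusted p = 0.0754 and 0.466).

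**Figure D2:**
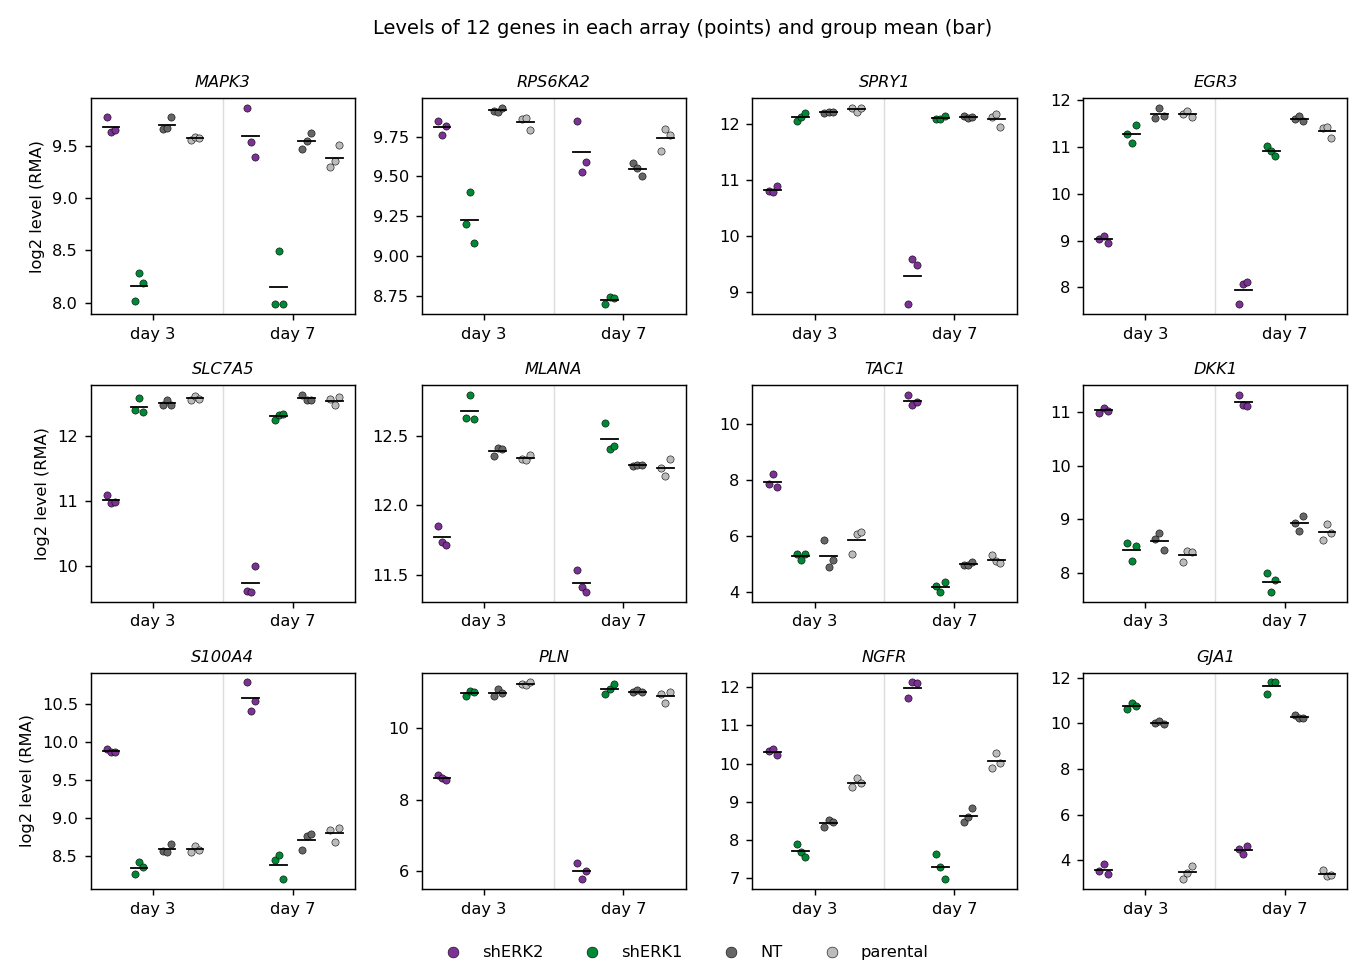
Log2 level of 12 genes in each array, day 3 on the left and day 7 on the right of every panel, with shERK2 in purple, shERK1 in green, NT in dark grey and parental in light grey (3 arrays per group). MAPK3 and RPS6KA2 are low in shERK1 cells alone, SPRY1, EGR3, SLC7A5 and PLN are low in shERK2 cells alone, TAC1, DKK1 and S100A4 are high in shERK2 cells alone, and GJA1 is high in shERK1 and NT cells and low in the other lines.

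TAC1 led the 15 largest retained differences in favour of shERK2 cells. TAC1, the precursor of the neuropeptide substance P, had 7.86, 8.19 and 7.76 log2 in shERK2 cells, against 5.37, 5.13 and 5.37 in shERK1 cells on day 3. On day 7 it had 11.03, 10.68 and 10.80 log2 in shERK2 cells, against 4.20, 4.001 and 4.36 in shERK1 cells. NT cells (4.97, 4.94 and 5.05) and parental cells (5.32, 5.09 and 5.02) were low like shERK1 cells. This gave a log2 difference of 2.65 (SE 0.21, adjusted p = 1.9e-09) on day 3 and 6.65 (adjusted p = 1.08e-16) on day 7, or 6.27-fold and 101-fold. DKK1, a secreted antagonist of WNT signalling, had 10.99, 11.08 and 11.02 log2 in shERK2 cells, against 8.55, 8.22 and 8.51 in shERK1 cells on day 3. Its day 7 levels were 11.31, 11.14 and 11.11 log2 in shERK2 cells, against 7.997, 7.65 and 7.88 in shERK1 cells. The groups were separate on both days, and shERK1 cells were also below NT cells on day 7, at -1.08 (adjusted p = 4.99e-07). The lines differed by 2.60 (SE 0.11, adjusted p = 5.59e-14) log2 on day 3 and 3.34 (adjusted p = 1.9e-16) on day 7. CCL18, a chemokine, had 11.14, 11.35 and 11.16 log2 in shERK2 cells, against 7.62, 7.17 and 6.67 in shERK1 cells on day 7, and its log2 differences were 2.40 and 4.06. S100A4, a calcium-binding protein linked to motility, had 9.91, 9.87 and 9.87 log2 in shERK2 cells, against 8.27, 8.42 and 8.36 in shERK1 cells on day 3, with differences of 1.53 and 2.19. MYOF, the membrane repair protein myoferlin, was higher by 1.45 and 2.79; shERK2 cells exceeded NT cells by 0.95 and 1.60 while shERK1 cells lay below them by -0.50 and -1.19, so that both lines moved away from NT.

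GPR83, a G protein-coupled receptor, was higher by 1.66 and 3.91, and ADRA2A, an alpha-2 adrenergic receptor, by 1.26 and 3.80. MRGPRF, a further G protein-coupled receptor, differed by 1.16 and 2.30, LYPD6B, a Ly6-family surface protein, by 1.10 and 3.30, and SYNGR3, a synaptic vesicle protein, by 1.49 and 2.36. BEND6 (0.88 and 3.06), RTL9 (1.30 and 2.68), NIM1K (1.05 and 2.47), MIR1915HG (1.55 and 2.12) and GIRGL (1.22 and 3.31) completed the 15. Every one of these 15 genes had all shERK2 arrays above all shERK1 arrays, which the naming rule required. TAC1, low in the other lines, passed the level cut through shERK2 cells, so its place among the tested genes rests on them. The values carry no detection calls, and levels of about 4 to 6 log2 in the lower group may be background, so that such a difference may understate the true one. Without array a of shERK2 day 7, GIRGL and RTL9 fell below the level cut, and without arrays a and c ADRA2A and SYNGR3 did too. All of these had thus passed the cut only through the shERK2 day 7 group, where they are high. Their place among the tested genes rests on that group, like that of TAC1 on shERK2 cells.

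The largest differences against shERK2 cells included membrane, secreted and transport proteins. PLN, phospholamban, a regulator of the calcium pump SERCA, had 8.69, 8.61 and 8.55 log2 in shERK2 cells, against 10.91, 11.03 and 11.01 in shERK1 cells on day 3. The values on day 7 were 6.24, 5.78 and 5.997 log2 in shERK2 cells, against 10.96, 11.10 and 11.22 in shERK1 cells. NT and parental arrays lay between 10.70 and 11.28, with those of shERK1 cells. On the log2 scale PLN differed by -2.37 (SE 0.096, adjusted p = 3.06e-14) on day 3 and -5.09 (adjusted p = 1.91e-20) on day 7, or 34-fold on the later day. SLC7A5, the LAT1 transporter of large neutral amino acids, had 11.10, 10.97 and 10.99 log2 in shERK2 cells, against 12.40, 12.59 and 12.37 in shERK1 cells on day 3. By day 7 the levels were 9.61, 9.60 and 9.996 log2 in shERK2 cells, against 12.25, 12.33 and 12.35 in shERK1 cells. All shERK2 arrays were below those of the other lines. The log2 difference was -1.44 (SE 0.078, adjusted p = 3.31e-12) on day 3 and -2.57 (adjusted p = 4.44e-17) on day 7. SOX8, a SOX factor of the neural crest, had 6.65, 7.59 and 7.61 log2 in shERK2 cells, against 9.60, 9.41 and 9.47 in shERK1 cells on day 7 and differed by -1.96 and -2.21. FABP7, a brain-type fatty acid binding protein found in melanoma, had 10.13, 10.16 and 10.20 log2 in shERK2 cells, against 12.77, 12.77 and 12.81 in shERK1 cells on day 7, and its differences were -0.96 and -2.62. CPN1, a carboxypeptidase N subunit, differed by -1.20 and -3.71, and CPB2, another carboxypeptidase, by -0.78 and -3.18. RNASE6, a secreted ribonuclease (-1.87 and -4.06), CTSG, the serine protease cathepsin G (-1.40 and -2.996), MRGPRX4, a G protein-coupled receptor (-2.25 and -3.29), ROPN1, a sperm-flagellum protein also found in melanoma (-1.06 and -2.63), TSPAN7, a tetraspanin (-0.997 and -2.40), CCDC102B (-1.64 and -2.21) and VWA5A (-1.57 and -1.97) were also among the 15 lowest. RNASE6 and CTSG were in addition higher in shERK1 cells than in NT cells on day 7, by 0.77 and 1.03.

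The promoters of 4 genes with large differences, 2 in each direction, are printed to show the sequence around their start, from 250 bases before to 50 after the start in RefSeq on GRCh38.p14, with capitals for the motif matches found in the window by their letters on both strands.
TAC1 (chr7:97731836-97732135, plus strand, CACGTG at 61 bases before the start): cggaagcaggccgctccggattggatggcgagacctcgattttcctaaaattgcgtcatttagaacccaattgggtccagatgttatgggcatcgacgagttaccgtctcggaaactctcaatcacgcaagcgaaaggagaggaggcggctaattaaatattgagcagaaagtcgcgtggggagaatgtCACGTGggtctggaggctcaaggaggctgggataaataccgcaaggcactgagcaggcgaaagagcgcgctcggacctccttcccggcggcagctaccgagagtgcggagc
DKK1 (chr10:52314031-52314330, plus strand, GGAATG at 50 and TATAAA at 30 bases before the start): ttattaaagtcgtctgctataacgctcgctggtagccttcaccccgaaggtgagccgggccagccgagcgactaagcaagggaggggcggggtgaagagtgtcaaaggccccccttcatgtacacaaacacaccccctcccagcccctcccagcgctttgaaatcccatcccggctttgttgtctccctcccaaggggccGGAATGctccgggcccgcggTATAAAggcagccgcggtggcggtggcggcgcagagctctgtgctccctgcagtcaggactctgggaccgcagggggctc
SPRY1 (chr4:123396545-123396844, plus strand, CACATGA at 68 bases before the start, the M-box core TCATGTG on the other strand): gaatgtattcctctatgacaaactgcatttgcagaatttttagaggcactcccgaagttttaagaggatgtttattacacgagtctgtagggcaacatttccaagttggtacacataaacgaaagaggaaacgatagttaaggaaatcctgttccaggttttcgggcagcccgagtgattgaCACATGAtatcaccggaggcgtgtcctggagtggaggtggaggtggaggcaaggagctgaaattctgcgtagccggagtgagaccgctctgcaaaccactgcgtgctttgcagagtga
SLC7A5 (chr16:87869458-87869757, minus strand, CACGTG at 130 bases before the start): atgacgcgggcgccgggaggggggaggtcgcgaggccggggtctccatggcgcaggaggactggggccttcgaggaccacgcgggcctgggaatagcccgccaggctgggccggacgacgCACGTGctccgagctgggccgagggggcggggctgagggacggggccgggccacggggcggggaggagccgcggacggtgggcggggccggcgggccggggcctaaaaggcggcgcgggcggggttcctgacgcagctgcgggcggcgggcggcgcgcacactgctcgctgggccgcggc
CACGTG is the E-box bound by MYC and MITF family factors, GGAATG the site of TEAD factors that YAP uses, and TCATGTG the core of the M-box of MITF. Over promoters of this length, CACGTG was found in 10.7% of the retained higher and 12.1% of the retained lower genes, with 10.4% of tested genes and 7.27% of all promoters. GGAATG was found in 12.4% and 10.9%, with 11% of tested genes, and TCATGTG in 2.27% and 1.65%, with 1.79%. TATAAA was found in 6.49% and 5.51%, with 5.56%. The ETS core CCGGAAG was found in 14.8% and 21.8%, with 20.1%, the AP-1 site TGANTCA in 6.27% and 4.41%, with 4.59%, and the cyclic AMP element TGACGTCA in 3.03% and 4.13%, with 3.22%. These shares describe letters in a window and say nothing of binding.

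For most retained genes the line that stood out was shERK2. Of the 1121 higher genes, 648 had all shERK2 arrays above all arrays of the other 3 lines on both days, and 153 had all shERK1 arrays below all of them. Both held for 46 and neither for 366. Of the 830 lower genes the numbers were 492 for shERK2, 90 for shERK1, 24 for both and 272 for neither. Over all tested genes, in either direction, 18.3% stood out in shERK2 cells and 6.13% in shERK1 cells. The retained genes were picked by tests on these same arrays, so these shares are not a like background. Of the 1121, 129 also passed the level cut only through shERK2 groups, which favours shERK2 standing out. The comparisons of each line with NT cells share the NT arrays and are therefore given only side by side: shERK2 differed from NT cells in 3225 genes (33%) on day 3 and 6282 (64.2%) on day 7, and shERK1 in 456 (4.66%) and 1751 (17.9%).

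The pigment programme and the neural crest programme of melanoma cells shifted in part. Of 16 tested melanocyte genes, 5 were lower alike and 3 higher alike in shERK2 cells, where 14% and 16.3% of all tested genes were. Of the lower ones, RAB27A and SLC45A2 also differed between NT and parental cells. MLANA, a melanosome antigen, had 11.85, 11.73 and 11.72 log2 in shERK2 cells, against 12.62, 12.79 and 12.62 in shERK1 cells on day 3. On day 7 it had 11.53, 11.41 and 11.38 log2 in shERK2 cells, against 12.59, 12.40 and 12.43 in shERK1 cells. The groups were separate, with NT cells (12.28, 12.29 and 12.29) between them on day 7. This gave a log2 difference of -0.91 (SE 0.056, adjusted p = 2.67e-11) on day 3 and -1.03 (adjusted p = 8.32e-13) on day 7. MITF, the master regulator of melanocytes, had 11.31, 11.96 and 11.69 log2 in shERK2 cells, against 12.56, 12.53 and 12.48 in shERK1 cells on day 7, where array a was the lowest, and differed by -0.26 on day 3 and -0.87 on day 7 (adjusted p = 0.0379 and 5.45e-08). BCL2A1, an anti-apoptotic MITF target, differed by -0.40 and -0.91. TYRP1, a melanin-synthesis enzyme, and SOX10, a factor upstream of MITF, ran the other way with 1.004 on day 3 and 1.33 on day 7 (adjusted p = 1.31e-10 and 2.97e-13) and 0.29 on day 3 and 0.54 on day 7 (adjusted p = 0.000574 and 8.28e-08). GPNMB, a melanosome glycoprotein, was higher by 0.15 and 0.19. PMEL (-0.05 and -0.82), TYR (0.01 and -0.41) and GPR143 (-0.16 and -0.73) passed on day 7 alone, as did EDNRB (0.01 and -0.26) and CDK2 (-0.15 and -1.04). RAB38, a melanosome transport GTPase, was higher on day 7 alone (0.06 and 0.19), and TRPM1, a melanocyte cation channel, was higher on day 3 and lower on day 7 (1.01 and -0.26). The list's median was -0.0669 on day 3 and -0.568 on day 7.

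Of 17 tested genes of dedifferentiated or neural crest-like melanoma, 9 were higher alike and 3 lower alike in shERK2 cells, with medians of 0.319 and 0.504. The shares of all tested genes higher and lower alike were 16.3% and 14%. In the list, 5 of the higher and 2 of the lower genes also differed between NT and parental cells. ZEB2, a zinc finger repressor of epithelial genes, had 10.03, 10.11 and 10.09 log2 in shERK2 cells, against 9.01, 8.98 and 9.03 in shERK1 cells on day 3, and 10.04, 10.52 and 10.33 log2 in shERK2 cells, against 8.71, 8.50 and 8.46 in shERK1 cells on day 7. The groups did not overlap, and the difference was 1.07 on day 3 and 1.74 on day 7 (adjusted p = 6.15e-09 and 5.1e-13). L1CAM, an adhesion molecule, was higher by 1.04 and 1.42, TFAP2A, a neural crest factor, by 0.64 and 0.67, and FN1, fibronectin, by 0.35 and 0.53. ZEB1, the paralogue of ZEB2, was lower, at -0.40 and -0.95. Among those kept apart, NGFR, the nerve growth factor receptor that marks neural crest-like states, was higher, as were AXL (0.62 and 1.32), LOXL2 (0.65 and 1.34) and SNAI2 (0.32 and 0.19), while WNT5A (-2.62 and -2.42) and TWIST1 (-1.02 and -1.28) were lower. SOX9 was lower on day 7 alone (-0.22 and -1.01) and TNC, tenascin C, higher on day 7 alone (0.08 and 0.50).

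Cell cycle genes differed mainly on day 7. Of 36 tested genes of G1/S and DNA replication, all 36 were lower in shERK2 cells on day 7, while 8 were lower on day 3 and 2 higher. Of the 8 lower alike, 5 also differed between NT and parental cells. GINS1, a subunit of the replicative helicase, had 10.92, 11.03 and 11.15 log2 in shERK2 cells, against 11.82, 11.85 and 12.04 in shERK1 cells on day 3. Its day 7 levels were 10.75, 10.68 and 10.58 log2 in shERK2 cells, against 12.27, 12.30 and 12.33 in shERK1 cells. The groups were separate, and the difference was -0.87 on day 3 and -1.63 on day 7 (adjusted p = 1.08e-09 and 7.33e-15). MCM6 (-0.20 and -1.03) and MCM10 (-0.15 and -1.47), replication factors, were the other retained ones, and GINS3, another helicase subunit, was kept apart (-0.37 and -1.38). Of 36 mitotic genes, 31 were lower on day 7 and 8 were lower alike on both days, while ANLN, MKI67 and PRC1 were higher on day 3. Beside these and the G1/S counts, 33.1% of all tested genes were lower on day 7 and 14% lower alike. BUB1, a spindle checkpoint kinase, differed by -0.27 on day 3 and -1.21 on day 7 (adjusted p = 0.0055 and 4.47e-12), AURKB, the Aurora B kinase, by -0.19 on day 3 and -1.15 on day 7 (adjusted p = 0.0471 and 7.24e-12), and CDK1, the mitotic kinase, by -0.22 and -1.03. MKI67, the proliferation marker, was higher on day 3 and lower on day 7 (0.40 and -0.42). The medians of the G1/S list were -0.0451 and -0.903, and those of the mitotic list -0.0943 and -0.609. Without arrays a and c of shERK2 day 7, 13 mitotic genes were lower alike in place of 8.

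CDKN1A, the cell cycle inhibitor p21, was the one member of 10 CDK inhibitors and cyclins that differed alike, with 12.94, 12.98 and 13.05 log2 in shERK2 cells, against 12.55, 12.36 and 12.32 in shERK1 cells on day 7. The groups were separate and the difference was 0.26 on day 3 and 0.58 on day 7 (adjusted p = 0.000152 and 5.72e-10). It is also a target of p53, and of 20 tested p53 targets 9 were higher alike and 2 lower alike, with medians of 0.145 and 0.477. The shares of all tested genes higher and lower alike were 16.3% and 14%. TP53INP1, a p53-induced nuclear protein, was higher by 0.65 on day 3 and 1.16 on day 7 (adjusted p = 2.42e-06 and 8.92e-11). SESN2, a stress-induced sestrin, was higher by 0.51 on day 3 and 1.10 on day 7 (adjusted p = 0.000234 and 1.58e-09), XPC, a DNA damage sensor, by 0.40 and 0.98, and TP53I3, TIGAR and SESN1 by 0.39 and 0.68, 0.28 and 0.68 and 0.25 and 0.66. GDF15 (-0.84 and -1.45), a stress cytokine, and FAS (-0.30 and -0.17), a death receptor, were lower and were kept apart. For FAS, arrays b and c of shERK2 day 7 overlapped shERK1 cells, and the call was lost without array a.

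Of 10 tested members of the BCL2 family, 4 were lower alike and 1 higher alike, where 14% and 16.3% of all tested genes were. MCL1 (-0.38 and -0.35), BCL2L2 (-0.48 and -0.47) and BCL2A1, which oppose apoptosis, were the retained ones. PMAIP1, the pro-apoptotic NOXA, was lower, at -1.35 and -2.07 and BCL2 higher by 0.70 and 0.32; both also differed between NT and parental cells. The pro-apoptotic BMF (0.10 and 0.99), BID (0.13 and 0.48) and BAX (0.11 and 0.37) were higher on day 7 alone, and the pro-apoptotic HRK was lower on day 7 alone (-0.07 and -0.22). The median over the family was 0.0172 and 0.000607.

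Most genes of ribosome production were lower in shERK2 cells. Of 29 tested ribosome biogenesis genes, 20 were lower alike and none was higher on either day, with medians of -0.316 on day 3 and -0.492 on day 7. Of the 20, 8 also differed between NT and parental cells. WDR12, a factor of large subunit assembly, had 10.10, 10.07 and 10.03 log2 in shERK2 cells, against 11.40, 11.31 and 11.53 in shERK1 cells on day 3. The values on day 7 were 10.61, 9.66 and 10.03 log2 in shERK2 cells, against 11.41, 11.38 and 11.39 in shERK1 cells. The groups were separate, and the difference was -1.34 on day 3 and -1.29 on day 7 (adjusted p = 5.76e-08 and 2.67e-08). UTP20 (-0.48 and -0.86), NOP16 (-0.37 and -0.62), NCL, nucleolin (-0.32 and -0.46), and NPM1, nucleophosmin (-0.24 and -0.50), were further retained ones. LYAR (-0.67 and -1.34) and POLR1B, a subunit of RNA polymerase I (-0.67 and -0.80), were kept apart.

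Of 26 glycolysis and hypoxia genes, 10 were lower alike and none higher alike, with medians of -0.0478 and -0.287. Counting each day by itself, 10 were lower and 2 higher on day 3, and 18 lower and 2 higher on day 7. ADM, the hypoxia-induced peptide adrenomedullin (-0.68 and -1.48), PFKFB4 (-0.98 and -0.95) and PFKFB3 (-0.32 and -0.62), which set the level of a glycolytic activator, HK2, hexokinase 2 (-0.41 and -0.83), NDRG1 (-0.32 and -0.80) and TPI1 (-0.14 and -0.42) were retained. SLC2A3, the glucose transporter GLUT3, had 7.61, 7.77 and 7.39 log2 in shERK2 cells, against 11.37, 11.91 and 11.76 in shERK1 cells on day 7. It differed by -1.85 and -4.09 and was kept apart, as were ALDOC (-0.55 and -1.82), PDK1 (-0.34 and -1.44) and CA12 (-0.53 and -1.28).

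Genes of the integrated stress response and of protein folding did not move together. Of 20 tested, 5 were lower alike and 4 higher alike, where 14% and 16.3% of all tested genes were. The medians were -0.212 and 0.0496. The lower ones serve amino acid supply and one-carbon metabolism: SLC7A5, SLC7A11, the cystine importer (-1.93 on day 3 and -1.27 on day 7 (adjusted p = 6.82e-15 and 1.41e-12)), PHGDH, of serine synthesis (-0.30 and -0.83), MTHFD2 (-0.55 and -0.59) and SHMT2 (-0.39 and -0.31). SLC7A11 had 8.66, 8.79 and 8.55 log2 in shERK2 cells, against 10.53, 10.65 and 10.60 in shERK1 cells on day 3, with no overlap. ATF3, a stress-induced transcription factor, was higher, with 8.71, 9.61 and 9.51 log2 in shERK2 cells, against 7.35, 7.47 and 7.49 in shERK1 cells on day 7 and differences of 0.89 and 1.84. SESN2 and CALR, calreticulin (0.19 and 0.34), were higher too, and HSPA5, the chaperone BiP (0.18 and 1.17), was higher and kept apart. The amino acid response letters TGATGNAA were found in 2.75% of the promoters of retained lower genes and 1.73% of retained higher genes, with 1.68% of tested genes.

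Among 18 genes of FOXO and PI3K feedback, 5 were higher alike and 2 lower alike, where 16.3% and 14% of all tested genes were. On day 7, 7 were higher and 9 lower, and the medians were 0.0595 on day 3 and -0.129 on day 7. PIK3IP1, an inhibitor of PI3K, had 8.45, 8.06 and 8.25 log2 in shERK2 cells, against 6.63, 6.62 and 6.53 in shERK1 cells on day 7, and differed by 0.77 on day 3 and 1.66 on day 7 (adjusted p = 7.88e-06 and 1.6e-11). BCL6, a transcriptional repressor, was higher by 0.69 and 1.21, IRS2, an insulin receptor substrate, by 0.40 and 0.68, and KLF6 by 0.31 and 0.32. IGF1R, the receptor of insulin-like growth factor 1, was lower, at -0.60 and -1.04. CITED2 was lower, at -0.49 and -1.21 and kept apart. Of 25 lysosome and autophagy genes, 5 were higher alike and 2 lower alike, where 16.3% and 14% of all tested genes were. Of the 5, only HEXA, a lysosomal hydrolase, was retained (0.25 and 0.50). CTSK (0.997 and 1.84) and CTSD (0.51 and 0.85), lysosomal cathepsins, were among those kept apart. Of the 25, 17 were higher and 4 lower on day 7, where 35.6% and 33.1% of all tested genes were. LAMP1, a lysosomal membrane protein, was lower, at -0.73 and -0.38, and MAP1LC3B, the autophagosome protein LC3B, by -0.51 and -0.65. For MAP1LC3B, array a of shERK2 day 7 was far below arrays b and c (11.25, 12.50 and 12.44), and without it the day 7 difference was -0.24 (adjusted p = 3.13e-05). Without array a, 10 lysosome and autophagy genes were higher alike and 4 lower. Of 17 genes of cholesterol and fatty acid synthesis, LSS (0.62 and 0.81) and SREBF2 (0.47 and 0.62) were higher alike and ACACA was lower (-0.37 and -0.22). Beside these stand the 16.3% and 14% of all tested genes, and nothing is read from the counts. Of the 17, 3 were higher and 6 lower on day 7, and the medians were -0.0245 and -0.0914.

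Many extracellular matrix genes were higher in shERK2 cells. Of 28 tested collagens, laminins and integrins, 17 were higher alike and 1 lower alike, with medians of 0.314 on day 3 and 0.809 on day 7. Of the 17, 10 also differed between NT and parental cells. COL12A1 (1.16 and 1.28), COL18A1 (0.94 and 1.82) and COL6A2 (0.66 and 1.79), collagens, and ITGA5 (0.32 and 1.11), ITGB8 (0.37 and 0.81) and ITGAV (0.13 and 0.38), integrin subunits, were retained. ITGA7, a laminin-binding integrin, was lower, with 6.69, 6.44 and 6.61 log2 in shERK2 cells, against 7.84, 7.63 and 7.83 in shERK1 cells on day 7 and differences of -0.87 and -1.19. COL5A2 (1.74 and 2.84) and ITGA2 (1.07 and 2.36) led those kept apart.

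Of 21 matrix proteases and inhibitors, 9 were higher alike and none was lower alike, 7 of the 9 kept apart, with medians of 0.166 and 0.683. MMP2, gelatinase A, had 12.997, 13.01 and 13.01 log2 in shERK2 cells, against 10.79, 10.67 and 10.61 in shERK1 cells on day 3. NT cells had 12.21, 12.29 and 12.27, so the larger part of the gap was on the side of shERK1 cells, which lay -1.57 from NT cells where shERK2 cells lay 0.75. The lines differed by 2.32 (SE 0.076, adjusted p = 6.57e-16) log2 on day 3 and 2.98 (adjusted p = 2.99e-18) on day 7. MMP17, a membrane-anchored protease, was retained with 0.50 on day 3 and 1.65 on day 7 (adjusted p = 0.0377 and 8.33e-08), and ADAM19 with 0.17 and 0.42. MMP17 had 10.33, 9.13 and 9.60 in shERK2 cells on day 7, and leaving out arrays a and c moved its difference more than that of any other named gene, by 0.554. PLAT, a plasminogen activator (0.71 and 1.37), PLAUR, the urokinase receptor (0.29 and 1.16), and MMP14 (0.45 and 0.68) were kept apart.

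Targets of the YAP and TEAD transcription factors were also higher in shERK2 cells in many cases. Of 17 tested, 10 were higher alike and 2 lower alike, with medians of 0.41 and 0.801, and 6 of the 10 also differed between NT and parental cells. CCN5, a matricellular protein, had 8.21, 7.74 and 7.92 log2 in shERK2 cells, against 6.56, 6.78 and 6.48 in shERK1 cells on day 3, with no overlap, and differed by 1.35 on day 3 and 1.37 on day 7 (adjusted p = 5.22e-06 and 1.15e-06). ARHGEF17 (0.67 and 1.22), AJUBA (0.59 and 0.81) and NUAK2 (0.41 and 0.54) were the other retained ones. CCN1 (1.45 and 2.63), CCN2 (0.33 and 0.99), AMOTL2 (1.22 and 1.42) and LATS2 (0.56 and 0.90) were kept apart. F3, tissue factor, was lower, at -1.60 on day 3 and -1.04 on day 7 (adjusted p = 1.19e-11 and 3.38e-09), and WWTR1, which encodes the YAP paralogue TAZ, by -0.23 and -0.27. Without arrays a and c of shERK2 day 7, the day 7 difference of WWTR1 was -0.12. Of 9 WNT antagonists and feedback genes, DKK1, DKK3 (1.40 and 2.91) and FRZB (0.42 and 0.61), all secreted antagonists, were higher alike, and RNF43 (-0.45 and -0.46) and WNT5A were lower.

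Interferon response and antigen presentation genes were higher in shERK2 cells, for the most part on day 7. Of 20 interferon response genes, 17 were higher on day 7 and 6 alike on both days, with medians of 0.0702 and 0.77. Over all tested genes, 35.6% were higher on day 7 and 16.3% higher alike. MX1, an antiviral GTPase, had 10.61, 10.53 and 10.53 log2 in shERK2 cells, against 9.96, 9.99 and 9.99 in shERK1 cells on day 3. By day 7 the levels were 11.07, 10.55 and 10.81 log2 in shERK2 cells, against 9.50, 9.33 and 9.37 in shERK1 cells. The groups were separate, and the difference was 0.58 on day 3 and 1.41 on day 7 (adjusted p = 6.05e-05 and 2.91e-11). HERC6 (0.40 and 1.03) and RIGI, a sensor of viral RNA (0.32 and 0.75), were retained too, while MX2 (0.80 and 1.84), SAMD9L (0.62 and 1.27) and IFIT2 (0.25 and 0.39) were kept apart. Of 17 antigen presentation genes, 14 were higher on day 7 and 4 alike: TAP1, the peptide transporter (0.39 on day 3 and 1.20 on day 7 (adjusted p = 0.0201 and 3.45e-08)), TAPBP (0.28 and 0.27) and, kept apart, ERAP1 (0.37 and 0.81) and HLA-DPA1 (0.23 and 0.96). Of 11 NFkB targets and cytokines, 5 were higher alike and 3 lower alike, with medians of 0.19 and 0.383. NFKBIA, the inhibitor of NFkB (0.48 and 0.82), and TNFAIP2 (0.48 and 0.70) were retained. CCL2 (1.79 and 3.80) and IL24 (1.22 and 2.37) were higher, and CCL20 (-0.48 and -1.13) and LIF (-1.11 and -0.45) lower, all kept apart.

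Markers of other cells and genes that handle small RNAs are given beside these lists. CD68, a leukocyte marker, was higher by 0.40 and 1.08. Of its group means only that of shERK2 day 7 (7.95) exceeded the level cut, and without array a the gene fell below the cut. Other leukocyte markers, all below the cut and not tested, ran both ways. FCER1G had 5.5 and 4.76 in shERK2 cells, against 6.86 and 6.69 in shERK1 cells, and TYROBP 7.12 and 7.1, against 6.5 and 6.58. The fibroblast marker COL1A2, which was kept apart, was higher by 0.51 and 0.99. The defining markers PTPRC, EPCAM and PECAM1 had group means between 3.27 and 4.83 log2. The summed level of the 10 fibroblast markers was 9180 to 11900 in shERK2 cells and 6020 to 6970 in shERK1 cells, most of it COL1A2, with group means of 13.15 and 13.44 log2 in shERK2 cells and 12.65 and 12.45 in shERK1 cells on days 3 and 7. The other 9 were below the level cut and were not tested. Among them, COL3A1 had means of 5.98 and 6.23 in shERK2 cells, against 5.08 and 5.56 in shERK1 cells. LUM had 5.39 and 4.90 in shERK2 cells, against 7.36 and 7.60 in shERK1 cells, and PDGFRA (3.81 and 4.11, against 4.53 and 4.90), COL1A1 (4.28 and 5.04, against 5.41 and 5.84) and FBLN1 (5.05 and 5.16, against 5.45 and 5.89) lay the same way. ESRP1, a splicing factor of epithelia, was higher by 0.54 and 0.62 and KDR, an endothelial receptor, lower, at -0.29 and -0.36. Of 12 genes of small RNA processing, AGO4 was higher alike (0.49 and 0.43), and XPO5 (-0.26 and -0.64) and DGCR8 (-0.21 and -0.36) were lower. In bulk RNA, fewer cells of a kind and less RNA per cell cannot be told apart.

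**Figure D3:**
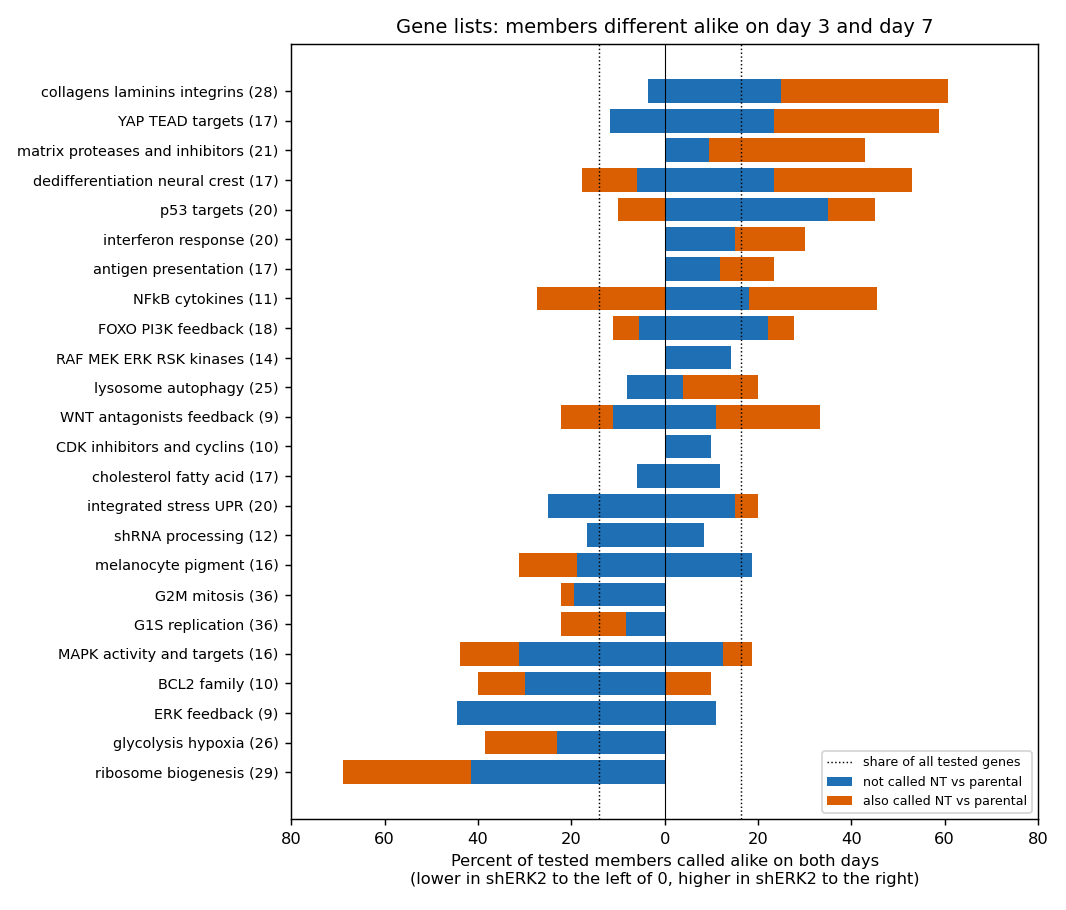
Percent of the tested members of each gene list that differed alike on both days between shERK2 and shERK1 cells, lower members to one side and higher members to the other (blue for retained genes, orange for genes kept apart), with dotted lines at the share of all tested genes (14% lower, 16.3% higher). Ribosome biogenesis lies far past the line for lower members (20 of 29), and collagens, laminins and integrins (17 of 28) and YAP and TEAD targets (10 of 17) far past the line for higher members.

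The size of the difference changed with time for many genes. The day 7 difference differed from the day 3 difference at an adjusted p under 0.05 for 3384 genes (34.6%). Of the retained higher genes, 414 passed this test, 409 with the larger difference on day 7, and of the retained lower genes 339 did, 325 with the larger on day 7. TAC1 and PLN, described above, moved by 4.003 and -2.72 log2 between the days. MARCHF4, a membrane ubiquitin ligase, had 5.96, 5.95 and 5.96 log2 in shERK2 cells, against 5.59, 5.73 and 5.64 in shERK1 cells on day 3. On day 7 it had 8.46, 8.37 and 8.49 log2 in shERK2 cells, against 5.54, 5.40 and 5.24 in shERK1 cells. The small early gap became wide, by 2.75 (adjusted p = 4.36e-11). NXF3, of the nuclear RNA export family, was at background-like levels on day 3 (0.40, adjusted p = 0.258) and higher by 3.36 on day 7. RBM24 (1.18 and 3.62), an RNA-binding protein, and on the lower side PLA1A (-1.55 and -4.59), a phospholipase, CXCR4 (-1.98 and -4.68), a chemokine receptor, and TXK (-0.59 and -3.17), a tyrosine kinase, also changed with time and were kept apart. CXCR4 lay between 3.38 and 3.68 in shERK2 cells over both days, near the lowest value of the whole table (2.51), where a decrease could not be measured. In shERK1 cells it had 5.37, 5.14 and 5.85 on day 3 and 7.69, 8.45 and 8.62 on day 7.

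The 92 genes that changed direction were higher on day 3 and lower on day 7 in 51 cases and the reverse in 41. POSTN, the matrix protein periostin, had 9.10, 8.84 and 8.99 log2 in shERK2 cells, against 7.55, 7.26 and 7.40 in shERK1 cells on day 3. Its day 7 levels were 6.12, 5.60 and 5.79 log2 in shERK2 cells, against 6.90, 6.94 and 6.89 in shERK1 cells. The order of the lines turned round, and both lay below NT cells on day 7 (8.16, 8.16 and 8.09). The difference was 1.57 on day 3 and -1.07 on day 7 (adjusted p = 1.68e-10 and 2.14e-08). KIF15, a mitotic kinesin (0.67 and -0.59), and FAM111B (0.51 and -1.01) turned in the same way, and MAGEH1 (-0.66 and 1.23), TNFSF4, a ligand of T cells (-0.54 and 0.53), and SULF2, a heparan sulfatase (-0.51 and 0.51), in the other. These other 5 were chosen for naming after their values were seen.

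The genes kept apart held some of the largest differences between shERK2 and shERK1 cells. NT differed from parental cells in 1168 genes (11.9%) on day 3 and 1602 (16.4%) on day 7, and 1869 (19.1%) on either day. Of the 1011 genes kept apart, 471 were higher and 540 lower in shERK2 cells, with medians of 0.49 and 0.91 for the higher and -0.52 and -0.96 for the lower on days 3 and 7. LIN28B, a regulator of let-7 microRNAs, had 4.26, 4.17 and 4.18 log2 in shERK2 cells, against 10.88, 11.08 and 10.79 in shERK1 cells on day 3. NT cells had 10.29, 10.35 and 10.34 and parental cells 4.02, 4.32 and 4.32. It was thus high in shERK1 and NT cells and near the lowest values in shERK2 and parental cells. On the log2 scale LIN28B differed by -6.71 (SE 0.13, adjusted p = 8.61e-20) on day 3 and -7.67 (adjusted p = 5.52e-21) on day 7. GJA1, the gap junction protein connexin 43, had 3.54, 3.82 and 3.40 log2 in shERK2 cells, against 10.64, 10.91 and 10.76 in shERK1 cells on day 3, with 10.03, 10.12 and 9.97 in NT cells and 3.17, 3.46 and 3.77 in parental cells. SHISA2 (-6.15 and -6.50), an endoplasmic reticulum protein, and SLAIN1 (-5.23 and -6.05), a microtubule factor named after its values were seen, had the same arrangement.

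NGFR had a graded arrangement: on day 7 it had 11.71, 12.12 and 12.11 log2 in shERK2 cells, against 7.63, 7.29 and 6.98 in shERK1 cells, with 8.47, 8.60 and 8.84 in NT cells and 9.89, 10.27 and 10.004 in parental cells. All 4 lines were separate. The log2 difference was 2.60 (SE 0.14, adjusted p = 4.11e-12) on day 3 and 4.68 (adjusted p = 5.06e-17) on day 7. MAL (3.08 and 3.81), a membrane raft protein, SLITRK6 (2.30 and 4.48), a neuronal membrane protein, OLFML2A (2.14 and 4.03), an olfactomedin-like secreted protein, and COL5A3 (1.91 and 3.83), a collagen, were the other largest higher ones, with shERK2 cells above all other lines on both days. PMEPA1 (1.64 and 3.50), FGL2 (2.41 and 2.57), MEST (1.44 and 1.65) and NPTX1 (0.68 and 2.26), chosen after their values were seen, were lower in shERK1 than in NT cells on both days; of these, FGL2 was highest in parental cells (9.75, 9.88 and 9.95 on day 3).

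For the genes kept apart, the control lines differed mostly in the opposite sense. The NT minus parental difference had the opposite sign to the shERK2 minus shERK1 difference, both as means of the 2 days, for 877 of the 1011 (86.7%), for 69.8% of the retained genes and for 66.2% of all tested genes. In 647 of the 1011 (64%), shERK2 cells lay nearer to parental cells and shERK1 cells nearer to NT cells on both days, which held for 39.4% of the retained genes and 22.3% of all. Across the 9779 genes, the differences between shERK2 and shERK1 and those between NT and parental had a Pearson r of -0.657. These comparisons share no array. Resemblance of the lines that does not come from the targets cannot be told apart from an effect of the targets with 1 line each.

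**Figure D4:**
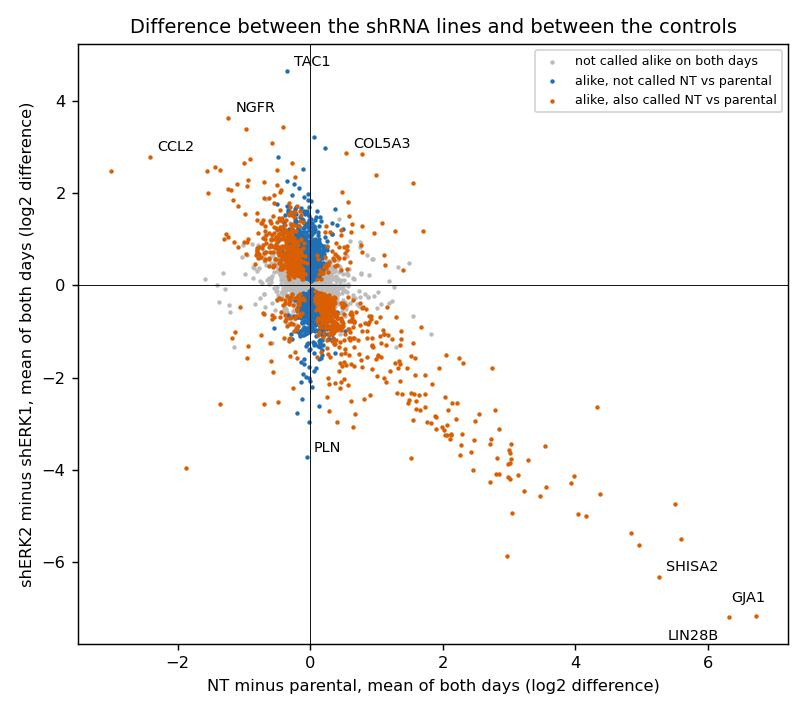
Difference of NT minus parental cells (x axis) against that of shERK2 minus shERK1 cells (y axis), each as the mean of the log2 differences of days 3 and 7, for the tested genes. Blue points are the retained genes, orange points those kept apart and grey points the rest; the cloud slopes downward (r of -0.657 across 9779 genes), with LIN28B, GJA1 and SHISA2 far right and low.

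The inhibitor arm, measured on other arrays, set the retained genes beside a direct block of the cascade. After 24 h, of 1089 retained higher genes that were tested in both arms, 827 (75.9%) rose with the mean of the 4 inhibitors against DMSO and 78 (7.16%) fell. Of 816 retained lower genes, 597 (73.2%) fell and 72 (8.82%) rose. Over the 9456 genes tested in both arms, 36.4% rose and 36.7% fell. The median log2 change with inhibitors was 0.423 for the higher and -0.403 for the lower genes, and -0.00229 for all. The genes kept apart had like shares: 361 of 456 higher genes rose and 299 of 398 lower genes fell. At 3 h, where 8.28% of genes rose and 8.2% fell, 196 of the higher genes rose and 48 fell, and 151 of the lower genes fell and 35 rose. By inhibitor at 24 h, the number of higher genes that rose was 772 with LGX818, 757 with trametinib, 761 with MEK162 and 820 with the ERK1/2 inhibitor, and the number of lower genes that fell was 566, 570, 574 and 580. The doses differ, and no inhibitor was set against another.

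Single genes show both matches and exceptions. SPRY1 changed by -2.90 with inhibitors at 24 h, EGR3 by -5.47, SLC7A5 by -0.28, DKK1 by 3.26 and TAC1 by 1.55. FOSL1, higher in shERK2 cells, fell by 2.21 with inhibitors. MLANA, lower in shERK2 cells, changed by 0.68. PLN, the retained gene with the largest negative difference, had a change of 0.03 (adjusted p = 0.606), and MAPK3 of -0.01 (adjusted p = 0.85). Among lists, all 36 G1/S genes, all 36 mitotic genes and all 29 ribosome biogenesis genes fell with inhibitors at 24 h. Of 27 collagens, laminins and integrins tested there, 17 rose and 4 fell, and of 19 interferon response genes 14 rose and 3 fell. Other lists ran differently in the 2 arms. Of 16 melanocyte genes, 11 were lower and 4 higher in shERK2 cells on day 7, but 9 rose and 5 fell with inhibitors. Of 11 NFkB targets and cytokines, 6 were higher and 3 lower on day 7, but 4 rose and 7 fell. Of the 18 FOXO and PI3K feedback genes, 15 rose and 2 fell.

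**Figure D5:**
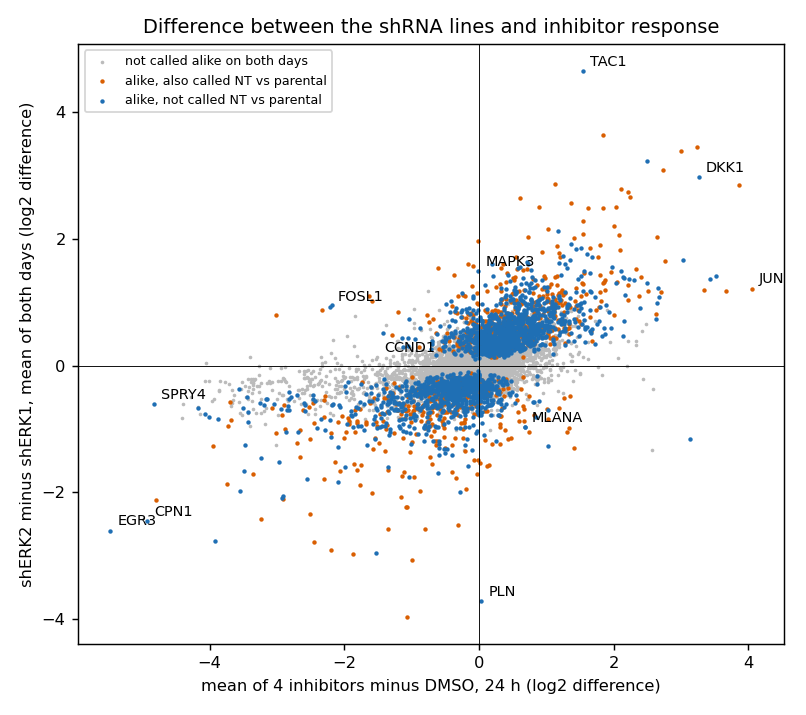
Mean log2 change with the 4 inhibitors against DMSO after 24 h (x axis) and log2 difference of shERK2 minus shERK1 cells as the mean of days 3 and 7 (y axis), for genes tested in both arms. Blue points are the retained genes, orange points those kept apart and grey points the rest. Of the retained higher genes 827 of 1089 lie on the side of a called rise, while PLN and MAPK3 lie near 0 on the x axis and FOSL1 and MLANA on the side opposite to most genes of their direction.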

How the data were processed

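Total RNA was measured on Affymetrix arrays, 54 in 18 groups of 3. The deposited values are log2 levels of probe sets, and the submitters' processing notes name affy and RMA; the chip definition and the genome build are not given in the sources used here. Of 18989 probe sets, 62 are controls, 17875 carry 1 gene symbol and 1052 were not used. Array number, not read depth, limits the precision, and no 2 arrays were identical.

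A gene entered the tests if 1 or more of the 8 groups with shRNA or parental cells averaged above 7.86 log2, the median over the whole table. The 24 arrays of these groups were fitted together with limma 3.58.1 in R 4.3.3 (lmFit with a term for each group, eBayes with an intensity trend, 16 residual degrees of freedom). P-values are two-sided and Benjamini-Hochberg adjusted over all 9779 genes of a comparison, with calls under 0.05. The inhibitor arm (9703 genes, 20 residual degrees of freedom) was fitted likewise. The promoters came from RefSeq, GRCh38.p14. On simulated data of the same size, with 200 genes shifted, the test of both days recovered 71% of those shifted by 0.5 log2 and 98% of those shifted by 1, with 0 false among 169 calls. The simulation gave each gene 1 spread in all groups, whereas the real shERK2 day 7 arrays varied more. Its share of false calls therefore does not carry over to the real calls.

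Members, gene lists and tests were chosen with earlier results of these data known. Genes were named as the 15 largest retained differences each way by the mean of both days, with arrays separated, the 5 largest each way among those kept apart and among changes between days, up to 4 members per list, and MAPK3, DUSP6, SPRY4, CCND1, MYC and MITF; other list members, named beside these for their counts, were chosen after their values were seen. Of the genes the rule picked, 2 are not reported here. Alternatives varied the level filter, the arrays fitted, the trend, the scaling, array weights, the replicate block, the threshold, the NT against parental rule and single arrays.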

Additional observations from a re-analysis of the deposited data

Results flagged for a closer look

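For 95 of the 129 genes chosen for naming, the shERK2 minus shERK1 difference was not the same on both days: the test of the day 7 minus day 3 difference itself gave adjusted p values (limma) between 4.51e-14 and 0.0409. The value after each gene below is that change, the day 7 log2 difference minus the day 3 log2 difference. In 84 of the 95 the difference was in one direction on both days, or called on day 7 alone, and larger on day 7. Of the 129, 15 were named because of their change between days and had to pass; of the other 114, mostly named for large differences on the same arrays, 80 passed. These shares are therefore partly fixed by the choice of genes, and nothing is read from them against the 34.6% of all tested genes that passed.

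Among secreted factors, receptors and other genes high in shERK2 cells, the gap widened for TAC1 (4.00), NXF3 (2.96), MARCHF4 (2.75), ADRA2A (2.53), RBM24 (2.45), GPR83 (2.25), LYPD6B (2.20), BEND6 (2.18), GIRGL (2.09), CCL18 (1.66), NIM1K (1.42), RTL9 (1.38), MYOF (1.34), MRGPRF (1.15), DKK1 (0.74), S100A4 (0.66) and MIR1915HG (0.56). Among matrix, protease, YAP target, neural crest and membrane genes it widened for COL5A3 (1.92), COL5A2 (1.10), COL1A2 (0.48), ITGA2 (1.28), CCN1 (1.18), MMP17 (1.15), MMP2 (0.66), CTSK (0.84), DKK3 (1.51), ZEB2 (0.67), NGFR (2.08), SLITRK6 (2.19), OLFML2A (1.89), MAL (0.73), PMEPA1 (1.86) and NPTX1 (1.58). Among immune, stress, cell cycle inhibitor, kinase and pigment genes it widened for CCL2 (2.00), IL24 (1.15), MX2 (1.04), MX1 (0.83), TAP1 (0.81), HLA-DPA1 (0.73), CD68 (0.68), ATF3 (0.96), PIK3IP1 (0.89), SESN2 (0.60), TP53INP1 (0.51), CDKN1A (0.32), FOSL1 (0.65), RPS6KA2 (0.35), TYRP1 (0.33) and SOX10 (0.24).

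Of genes low in shERK2 cells, the gap widened among membrane, secreted, transport and other proteins for PLN (-2.72), PLA1A (-3.04), CXCR4 (-2.69), TXK (-2.58), CPN1 (-2.51), CPB2 (-2.40), SLC2A3 (-2.24), RNASE6 (-2.19), FABP7 (-1.66), CTSG (-1.60), ROPN1 (-1.57), TSPAN7 (-1.41), SLC7A5 (-1.14), MRGPRX4 (-1.04), CCDC102B (-0.57), LIN28B (-0.95) and SLAIN1 (-0.82). Among ERK feedback and immediate early genes it widened for SPRY1 (-1.53), EGR1 (-1.48) and EGR3 (-0.72), and among replication, mitosis, ribosome and small RNA genes for GINS3 (-1.02), AURKB (-0.97), BUB1 (-0.93), GINS1 (-0.76), LYAR (-0.66) and XPO5 (-0.38). Pigment, BCL2 family, metabolic, cytokine and receptor genes followed with SLC45A2 (-1.27), MITF (-0.61), BCL2A1 (-0.51), PMAIP1 (-0.72), GDF15 (-0.61), CCL20 (-0.65), ALDOC (-1.27), CITED2 (-0.72) and IGF1R (-0.44).

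The gap narrowed by day 7 for 5 genes. Of those low in shERK2 cells they were SLC7A11 (0.66), LIF (0.65), F3 (0.56) and LAMP1 (0.35), and of those high in shERK2 cells BCL2 (-0.37). The direction turned for 6 genes, to higher in shERK2 cells on day 7 for MAGEH1 (1.90), TNFSF4 (1.07) and SULF2 (1.02) and to lower for KIF15 (-1.26), FAM111B (-1.52) and POSTN (-2.64).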

How the results depend on the processing

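The number of retained genes was 1951; it was 1218 with a fit of the 12 shERK2 and shERK1 arrays alone and 672 with a log2 difference of at least 0.5 required. The genes kept apart (1011) became 2341 with array weights, 610 at an adjusted p under 0.01, 310 with a size of at least 0.5, 1529 when an unadjusted p marked a difference between NT and parental cells, 591 when both days were required, 391 when that difference had to reach 0.5, and 1642 without arrays a and c of shERK2 day 7. Day 3 calls (3471) became 5592 with array weights and 1101 with the size required. Day 7 calls (6714) became 3291 with the size required. The day 7 minus day 3 calls (3384) became 2094 with the 12 arrays, 2122 at 0.01 and 1702 with the size. NT minus parental calls on day 3 (1168) became 3866 with array weights, 739 at 0.01, 413 with the size and 2045 without arrays a and c, and on day 7 (1602) 976, 489 and 2648 under the last 3. The array weights stopped before reaching their tolerance. In the alternatives with a fit, genes called both there and here had the same direction. Membership moved more than direction. Array weights gave 2038 retained genes, but only 1158 of the 1951 were among them. Of the 1951, 1217 stayed retained with the 12 arrays, 1221 at 0.01 and 490 with the size required.

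Leaving out each array in turn gave 1496 to 2116 retained genes, 841 to 1564 kept apart, 2734 to 4462 on day 3, 6188 to 7049 on day 7, 2819 to 4567 for the change between days, and 829 to 1867 and 1147 to 2436 for NT minus parental. The highest numbers kept apart and between NT and parental cells were those without array a of shERK2 day 7. With the letter as a replicate block the numbers were 2005 retained, 988 kept apart, 3501 on day 3, 6744 on day 7, 3470 for the change between days, and 1146 and 1544 for NT minus parental. The letters share only a name, since deviations of same-lettered shERK2 and shERK1 arrays correlated between -0.161 and 0.121, and the 24 h inhibitor count (7119) became 7307 with the replicate block. Without the level filter or with a stricter one, no count moved by 1.5 times. Of 258 values of named genes (129 genes on 2 days), 38 lost their call when a size of 0.5 was required, 14 at 0.01 and 10 with the 12 arrays. Reversals among named genes were those of CCND1, day 3, with -0.0637 under array weights (adjusted p = 0.171) and, with single arrays left out, -0.073 (without array b of shERK1 day 3, adjusted p = 0.335) to 0.0701, and of MYC on day 7, with 0.0823 under array weights (adjusted p = 0.572); none of these passed the test. The causes were not tested. With 3 arrays per group and no detection calls, differences at levels near background are the least certain.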
